A study of Mus musculus with 4 samples.

Results

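Ceramide synthases join a fatty acyl chain to a sphingoid base in the endoplasmic reticulum, and each family member prefers acyl chains of certain lengths. Cers2, formerly Lass2, prefers very long chains and is the member best known from liver, Cers4 prefers long saturated chains above palmitate, and Cers5 and Cers6 prefer palmitoyl-CoA. Their product, dihydroceramide, is desaturated to ceramide, the parent of sphingomyelin and glucosylceramide. All probe sets whose single gene symbol was Cers2, Cers4, Cers5 or Cers6 were taken, older names being matched by gene number. This gave 7 of the 45037 probe sets on the array, 1 for Cers2, 3 for Cers4, 2 for Cers5 and 1 for Cers6.

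The RNA came from liver of male mice in 4 groups, each with 1 expression array: LASS2-/- on a high-fat diet (HFD), wild type (WT) on HFD, LASS2-/- on chow and WT on chow. Per the labels, HFD held 60% and chow 10% of calories from fat, and both diets began at 3 weeks of age in both genotypes. The labels give neither the allele, the strain, the age at collection nor whether RNA of several mice was pooled. With 1 array a group no value has an error between animals, and group names below are those of the labels. Hepatocyte markers were bright throughout: the summed linear signal of 8 of them, among them Alb and Apoa1, was 260000 in LASS2-/- HFD, 275000 in WT HFD, 308000 in LASS2-/- chow and 292000 in WT chow. The summed signal of 12 Kupffer cell and macrophage markers was 36400 in LASS2-/- HFD, 23600 in WT HFD, 29400 in LASS2-/- chow and 23300 in WT chow. None of these 8 and 12 markers had the lowest possible signal of 1 on any array. In such bulk tissue, fewer cells of a type and less RNA per cell cannot be told apart.

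The study asks what loss of LASS2 changes in liver on each diet, so the targeted gene was examined first. Cers2 signal was present at nearly the same level on all 4 arrays, those labelled LASS2-/- included. The log2 signal of its probe set, 1423955_a_at, was 12.32 in LASS2-/- HFD, 12.25 in WT HFD, 12.32 in LASS2-/- chow and 12.46 in WT chow. The WT chow array was the highest and the WT HFD array the lowest, so the arrays labelled LASS2-/- lay between those labelled WT. On the linear scale these are 5096, 4871, 5098 and 5649 signal units in the same order, a range of 1.16-fold. The log2 difference LASS2-/- minus WT was 0.07 on HFD and -0.15 on chow. The mean difference over both diets was -0.04 ± 0.10 (moderated standard error, limma, adjusted p = 0.962), with a 95% interval of -16.1% to 12.5% on the linear scale. Set between diets, HFD minus chow was 0.00 in LASS2-/- and -0.21 in WT, a mean of -0.11 ± 0.10 (limma, adjusted p = 0.603). The intervals come from an additive fit of genotype and diet over the 4 arrays, in which the change of the genotype difference between diets serves as the error and most of the weight comes from probe sets of like signal.

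As a check of the genotype labels, the probe set thus did not tell the LASS2-/- arrays from the WT arrays, and the labels are not borne out by it. The sources used here state neither what the LASS2-/- allele changes in Cers2 nor the stretch of Cers2 RNA that this probe set binds. Whether the allele leaves in place the RNA that the probe set binds, so that it would check nothing, was not tested, nor were the labels themselves. Every direction below rests on the labels alone. RefSeq annotates 2 transcription starts of Cers2 on the plus strand of mouse chromosome 3 (GRCm38.p6), 3640 bases apart. The 250 bases before each start are shown because the Cers2 signal, the value on which the genotype check turns, could come from transcripts of either start, and capitals mark GC boxes (GGGCGG) and CCAAT boxes (CCAAT) on either strand.
Cers2 first start, chr3:95314940-95315189: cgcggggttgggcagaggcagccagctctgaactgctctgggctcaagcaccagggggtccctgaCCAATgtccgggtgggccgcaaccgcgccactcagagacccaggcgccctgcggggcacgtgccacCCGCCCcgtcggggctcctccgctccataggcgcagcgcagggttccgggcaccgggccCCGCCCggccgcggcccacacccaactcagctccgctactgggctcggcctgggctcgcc
Cers2 second start, chr3:95318580-95318829: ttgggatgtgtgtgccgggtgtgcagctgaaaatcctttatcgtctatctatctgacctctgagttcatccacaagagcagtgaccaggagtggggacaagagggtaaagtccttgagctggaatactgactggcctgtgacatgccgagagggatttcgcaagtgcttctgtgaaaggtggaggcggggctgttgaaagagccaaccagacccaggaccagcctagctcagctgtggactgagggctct
The first window held 24 CpG dinucleotides, 2 GC boxes and 1 CCAAT box, and the second held 5 CpG dinucleotides and 0 boxes of either kind. Among 32851 windows of this length before annotated starts, the median was 6 CpG dinucleotides, 32.7% held a GC box and 33.8% a CCAAT box. The single windows of Cers4, Cers5 and Cers6 held 11, 16 and 23 CpG dinucleotides. These matches describe the letters of the windows and say nothing of binding, and the array cannot separate the starts.

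**Figure D1:**
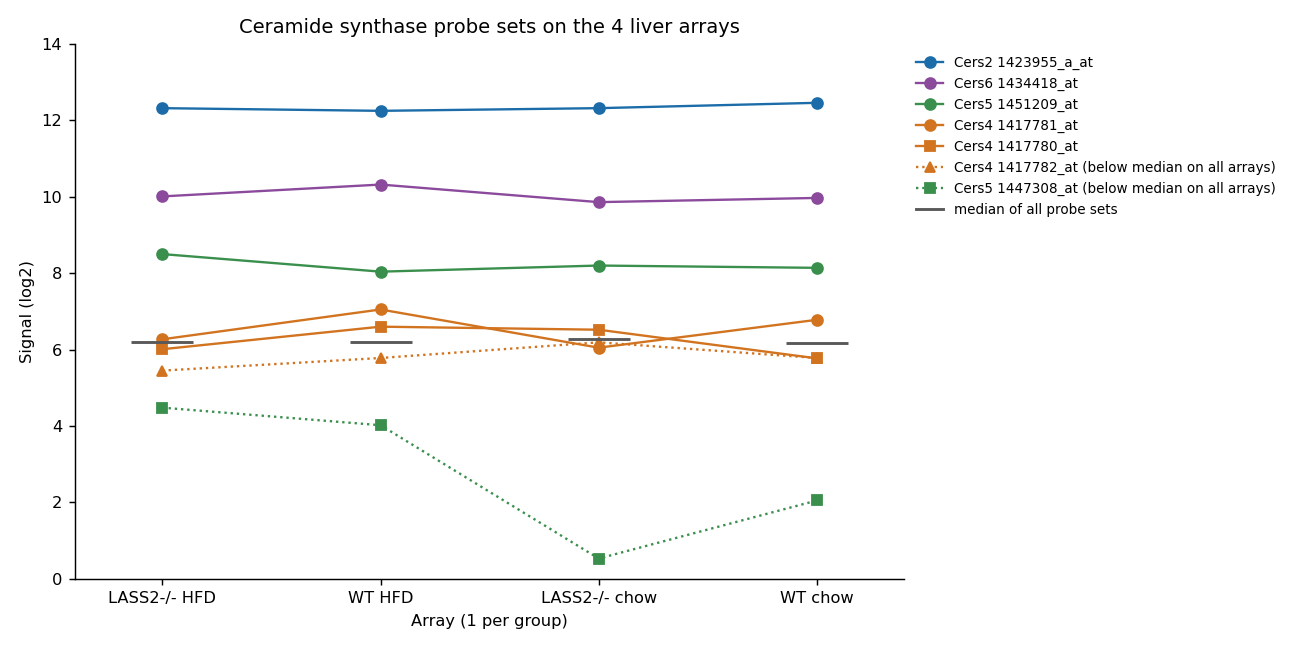
Signal in log2 (vertical axis) of the 7 ceramide synthase probe sets on each of the 4 arrays (horizontal axis, 1 array per group). Dotted lines are the 2 probe sets below the array median on all 4 arrays, and grey bars are the array medians. Cers2 stays between 12.25 and 12.46, and 2 of the 3 Cers4 lines cross the medians.

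Cers6 signal was lower on the LASS2-/- than on the WT array on both diets and higher on HFD than on chow in both genotypes, but no mean effect passed the test. The log2 signal of 1434418_at was 10.01 in LASS2-/- HFD, 10.32 in WT HFD, 9.86 in LASS2-/- chow and 9.97 in WT chow. The WT HFD array was the highest and the LASS2-/- chow array the lowest. LASS2-/- minus WT was -0.31 on HFD and -0.12 on chow, a mean of -0.21 ± 0.13 (limma, adjusted p = 0.749). HFD minus chow was 0.16 in LASS2-/- and 0.35 in WT, a mean of 0.25 ± 0.13 (limma, adjusted p = 0.327). The 95% interval of the diet effect ran from -2.62% to 45.8%, and that of the genotype effect from -29.4% to 5.6%.

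Cers5 was measured above the array median by 1 of its 2 probe sets. The log2 signal of 1451209_at was 8.50 in LASS2-/- HFD, 8.04 in WT HFD, 8.20 in LASS2-/- chow and 8.14 in WT chow. Only the LASS2-/- HFD array stood above the others, which spanned 8.04 to 8.20. LASS2-/- minus WT was 0.46 on HFD, a ratio of 1.38-fold, and 0.07 on chow. The mean genotype effect was 0.26 ± 0.20 (limma, adjusted p = 0.813), with a 95% interval of -11.6% to 63.0%. HFD minus chow was 0.30 in LASS2-/- and -0.10 in WT, a mean of 0.10 ± 0.20 (limma, adjusted p = 0.835). The second probe set, 1447308_at, had log2 signals of 4.48 in LASS2-/- HFD, 4.02 in WT HFD, 0.53 in LASS2-/- chow and 2.05 in WT chow. All 4 values were below the array medians of 6.17 to 6.28, so no ratio or direction is given for it.

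The 3 Cers4 probe sets lay around or below the array medians, and the 2 that entered the test differed in direction on chow. The log2 signal of 1417781_at was 6.27 in LASS2-/- HFD, 7.05 in WT HFD, 6.05 in LASS2-/- chow and 6.78 in WT chow. Both arrays labelled LASS2-/- were lower than both labelled WT, and the mean genotype effect was -0.75 ± 0.41 (limma, adjusted p = 0.693). On HFD the difference was -0.77, and on chow at most -0.50, since the LASS2-/- chow signal was under its array median. The log2 signal of 1417780_at was 6.01 in LASS2-/- HFD, 6.60 in WT HFD, 6.52 in LASS2-/- chow and 5.77 in WT chow. LASS2-/- was thus the lower array on HFD, with a log2 difference of at most -0.40, and the higher on chow, with one of at least 0.35. Its mean genotype effect was 0.08 ± 0.54 (limma, adjusted p = 0.987), and it was -0.03 with values below the median raised to it. The diet effects were 0.24 ± 0.41 for 1417781_at (limma, adjusted p = 0.80) and 0.16 ± 0.54 for 1417780_at (limma, adjusted p = 0.906). The third probe set, 1417782_at, had log2 signals of 5.45 in LASS2-/- HFD, 5.78 in WT HFD, 6.19 in LASS2-/- chow and 5.78 in WT chow, all below the medians. No direction is read from 1417782_at.

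Across the family, 5 of the 7 probe sets reached the array median on at least 1 array and entered the test, as did 26035 of all 45037. The Cers4 probe sets entered through the 3 and 2 arrays on which they were high. For the mean genotype effect 0 of the 5 passed at an adjusted p under 0.05 in limma, and 0 had an unadjusted p under 0.05, where 0.35% of the 26035 probe sets passed and 8.62% had such an unadjusted p. For the mean diet effect 0 of the 5 passed and 0 had an unadjusted p under 0.05, where 7.51% passed and 20.4% had such an unadjusted p. Differences of at least 2-fold, counted with signals under the array median raised to it, were found in 0 of the 5 in each comparison. Over all kept probe sets they were found in 1.91% for genotype on HFD, 1.75% for genotype on chow, 4.54% for diet in LASS2-/- and 3.35% for diet in WT. With such shares, 0 of 5 is not a result particular to the family.

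The spread of probe sets of like signal gives a scale for these differences, although it also holds genes that changed and is no replicate error. Kept probe sets were divided by mean signal into 4 classes of equal size. In the brightest class, which holds Cers2 and Cers6, the standard deviation of LASS2-/- minus WT was 0.250 on HFD and 0.228 on chow. Both Cers2 differences were smaller than this, and the Cers6 difference on HFD was larger. In the next class, which holds Cers5 1451209_at, it was 0.336 on HFD, less than the Cers5 difference there. In the dimmest class, which holds both Cers4 probe sets, it was 1.155 on HFD and 1.251 on chow, more than any Cers4 difference.

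**Figure D2:**
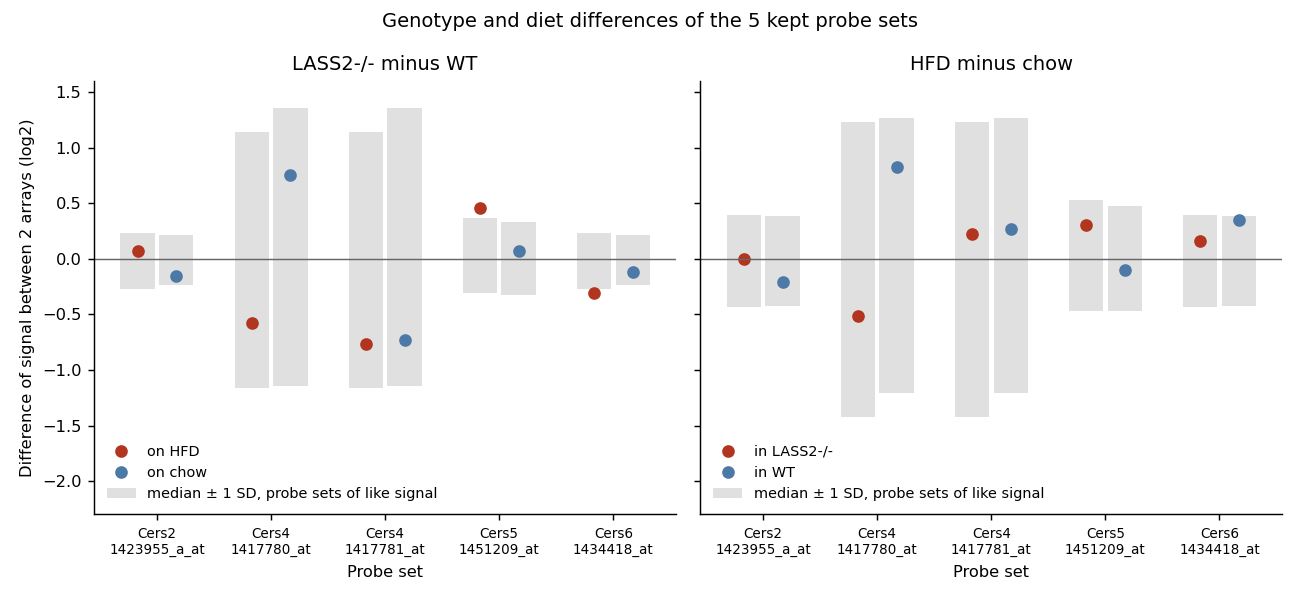
Differences of log2 signal between 2 arrays (vertical axis) for the 5 kept probe sets (horizontal axis): LASS2-/- minus WT on each diet on the left, HFD minus chow in each genotype on the right, with signals as deposited. Grey bars are the median ± 1 SD over kept probe sets of the same brightness class. Cers5 at 0.46 and Cers6 at -0.31, both for genotype on HFD, lie outside their bars.

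Differences between members within an array do not change when each array is scaled by 1 factor, though they do under quantile normalization. Cers2 minus Cers6, taken between their log2 signals, was 2.30 in LASS2-/- HFD, 1.93 in WT HFD, 2.46 in LASS2-/- chow and 2.49 in WT chow. The WT HFD array had the smallest difference and the chow arrays nearly the same one. Cers6 minus Cers5 1451209_at was 1.51 in LASS2-/- HFD, 2.28 in WT HFD, 1.66 in LASS2-/- chow and 1.84 in WT chow. The genotype change of this difference was -0.77 on HFD and -0.18 on chow. These are differences between signals of unlike probes, so only their change between arrays can be read, and 1 array a group gives it no test.

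The genotype difference was set between diets as a value without a test. LASS2-/- minus WT on HFD minus the same on chow was 0.21 for Cers2, 0.40 for Cers5 1451209_at, -0.19 for Cers6, -0.05 for Cers4 1417781_at and -1.33 for Cers4 1417780_at. The last, the largest in size of the 5, rests on signals under the array median on 2 of the 4 arrays. The additive fit uses this same difference as its error, so the residual standard deviations follow it: 0.107 for Cers2, 0.198 for Cers5 1451209_at, 0.095 for Cers6, 0.024 for Cers4 1417781_at and 0.667 for Cers4 1417780_at.

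**Figure D3:**
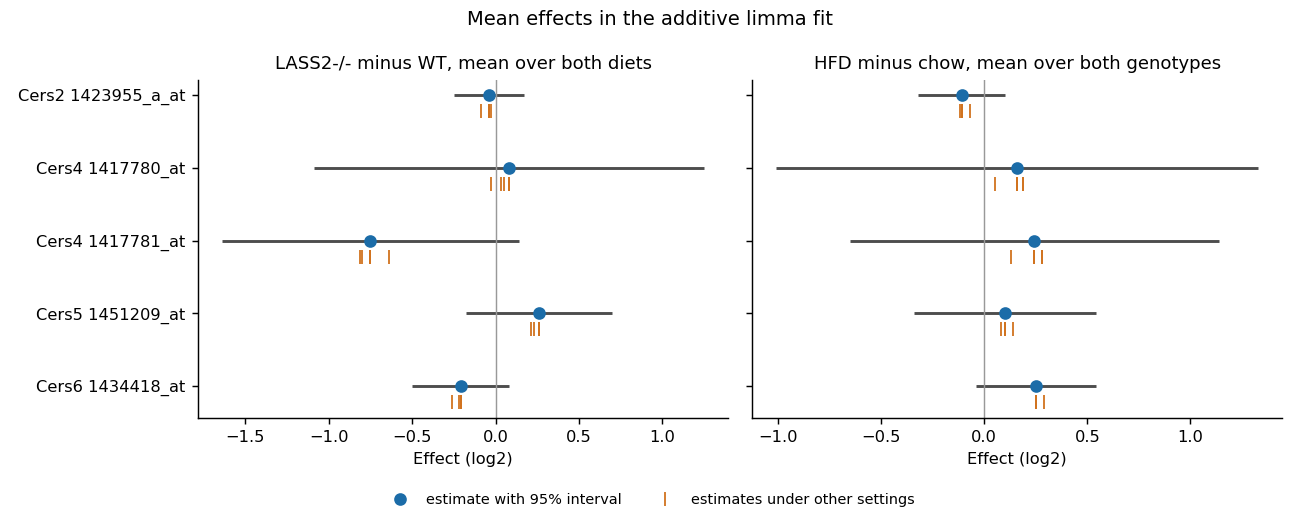
Mean effects in log2 (horizontal axes) of genotype (left) and diet (right) for the 5 kept probe sets. Lines are 95% intervals from the additive limma fit, and ticks are estimates for the same probe set under other settings tried. The setting that averages over probe sets has no tick. For Cers5 it gave -0.13 for genotype and 1.53 for diet. All 10 intervals include 0, and the Cers2 genotype estimates lie between -0.09 and -0.03.

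Many genes shared the shape of the members over the 4 arrays, which is a description only. The genes nearest to Cers2 in log2 signal centred on its own mean were Pes1, which serves ribosome assembly, Emd, which encodes emerin of the nuclear envelope, and Cox11, an assembly factor of cytochrome oxidase, at Euclidean distances of 0.018, 0.020 and 0.023. Of 10110 genes above the median on all arrays, 1719 lay within 0.2 of Cers2, and 327 had a Pearson r above 0.9 with it over the 4 arrays. Nearest to Cers6 were Kdm4c, a histone demethylase, Alad, an enzyme of heme synthesis, and Anks1, at 0.005, 0.029 and 0.036, with 646 genes at r above 0.9. Nearest to Cers5 were Sc5d, a desaturase of cholesterol synthesis, Gnb4, a G protein subunit, and A930005H10Rik, at 0.026, 0.028 and 0.040, with 401 such genes. Nearest to Cers4 1417781_at were Tdp1, a DNA repair phosphodiesterase, BC024139 and Bmf, a pro-apoptotic Bcl2 family member, at 0.096, 0.118 and 0.163, with 429 such genes.

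The genes that supply ceramide synthases with sphingoid bases had no member that passed. Of 8 kept members, 0 rose and 0 fell for genotype and 0 rose and 0 fell for diet in limma, with 1 and 2 at an unadjusted p under 0.05. Over 12493 genes 0.456% passed for genotype and 9.45% for diet, and 1288 and 2966 had such an unadjusted p, so 0 of 8 is not a result particular to the list. The medians were 0.10 for genotype and 0.16 for diet, against 0.01 and 0.02 over these genes. Sptlc2, a catalytic subunit of serine palmitoyltransferase, had log2 signals of 9.07 in LASS2-/- HFD, 8.67 in WT HFD, 8.72 in LASS2-/- chow and 8.16 in WT chow. Its genotype effect was 0.48 ± 0.18 (limma, adjusted p = 0.409) and its diet effect 0.43 ± 0.18 (limma, adjusted p = 0.177). Sptlc3, another subunit of that enzyme, had a genotype effect of 1.22 ± 0.93 (limma, adjusted p = 0.809) and a diet effect of 2.20 ± 0.93 (limma, adjusted p = 0.197), with 3 of its 4 signals under 6.17.

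Among the genes that supply fatty acyl-CoA, several elongation cycle genes changed with diet. Of 15 kept members, 4 rose and 1 fell on HFD in limma, with 9 at an unadjusted p under 0.05 and a median of 0.18. Over 12493 genes 9.45% passed for diet and 2966 had such an unadjusted p. Elovl6, which elongates palmitoyl-CoA to stearoyl-CoA, had log2 signals of 12.47 in LASS2-/- HFD, 12.46 in WT HFD, 13.56 in LASS2-/- chow and 13.69 in WT chow. Both HFD arrays were below both chow arrays, and Elovl6 fell by 1.16 ± 0.09 on the log2 scale (limma, adjusted p = 4.28e-06). Elovl3, which makes saturated and monounsaturated very-long-chain acyl-CoA, rose by 0.60 ± 0.10 (limma, adjusted p = 0.003). Hacd2, a dehydratase of the cycle, rose by 0.49 ± 0.10 (limma, adjusted p = 0.00717), and Hsd17b12, the ketoacyl-CoA reductase of the cycle, by 0.32 ± 0.08 (limma, adjusted p = 0.0259, and no longer passing without the filter on dim probe sets). The related genes Hacd1, Hacd3 and Hacd4 had diet effects of 0.33, 0.22 and 0.44 and did not pass. For genotype 1 rose and 0 fell, with 2 at an unadjusted p under 0.05 and a median of 0.04. Over the 12493 genes 0.456% passed for genotype and 1288 had such an unadjusted p.

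Elovl7, an elongase of saturated long-chain acyl-CoA, was the 1 gene of these lists that rose with the LASS2-/- label. Its brightest probe set had log2 signals of 9.10 in LASS2-/- HFD, 6.69 in WT HFD, 6.44 in LASS2-/- chow and 3.70 in WT chow. It was 5.31-fold higher in LASS2-/- on HFD and at least 1.20-fold higher on chow, where the WT signal was under the array median. All other Elovl7 probe sets were under the median on both chow arrays, so no direction on chow is read from them. On HFD their LASS2-/- to WT ratios, with signals under the median raised to it, ran from 1 to 2.37. Unless stated otherwise, the effects that follow are those of the brightest probe set. The genotype effect was 2.57 ± 0.43 (limma, adjusted p = 0.0216) and the diet effect 2.83 ± 0.43 (limma, adjusted p = 0.00128). The genotype call held in 4 of 10 alternative settings, with adjusted p from 0.000791 to 0.913 in limma. With values under the median raised to it the effect was 1.33 (adjusted p = 0.327), and with the mean of its 6 probe sets 0.81 (adjusted p = 0.913). The diet effect was 1.59 (adjusted p = 0.0477) and 2.41 (adjusted p = 0.263) in the same settings of limma.

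Genes that use or break down ceramide passed in 1 case, for diet. Of 20 kept members, 0 rose and 0 fell for genotype, and 0 rose and 1 fell for diet in limma, with medians of -0.15 and 0.16 and with 3 and 4 members at an unadjusted p under 0.05. Over the 12493 genes 0.456% passed for genotype and 9.45% for diet, and 1288 and 2966 had such an unadjusted p, so these counts are near the general share. The member that fell was Ugcg, the glucosylceramide synthase, with log2 signals of 8.46 in LASS2-/- HFD, 8.64 in WT HFD, 9.56 in LASS2-/- chow and 9.21 in WT chow. Both HFD arrays were below both chow arrays, and the diet effect was -0.83 ± 0.18 (limma, adjusted p = 0.0124). With the mean of all Ugcg probe sets it was -0.30 (limma, adjusted p = 0.645).

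Other proteins with the TLC domain, the fold that ceramide synthases share, had 1 call in each direction for diet. Of 9 kept members, 1 rose and 1 fell on HFD and 0 rose and 0 fell for genotype in limma, with medians of 0.28 and -0.16 and with 4 and 0 members at an unadjusted p under 0.05. Over the 12493 genes 9.45% passed for diet and 0.456% for genotype, with 2966 and 1288 at such an unadjusted p, and nothing particular to the list is read from its counts. Tlcd2, a regulator of membrane fluidity, had log2 signals of 12.25 in LASS2-/- HFD, 12.43 in WT HFD, 11.30 in LASS2-/- chow and 11.44 in WT chow. Both HFD arrays were above both chow arrays, and Tlcd2 rose by 0.97 ± 0.10 (limma, adjusted p = 5.11e-05). Tram1, of the protein translocation site of the endoplasmic reticulum, fell by 0.51 ± 0.09 (limma, adjusted p = 0.0046), and did not pass with the mean of its probe sets.

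**Figure D4:**
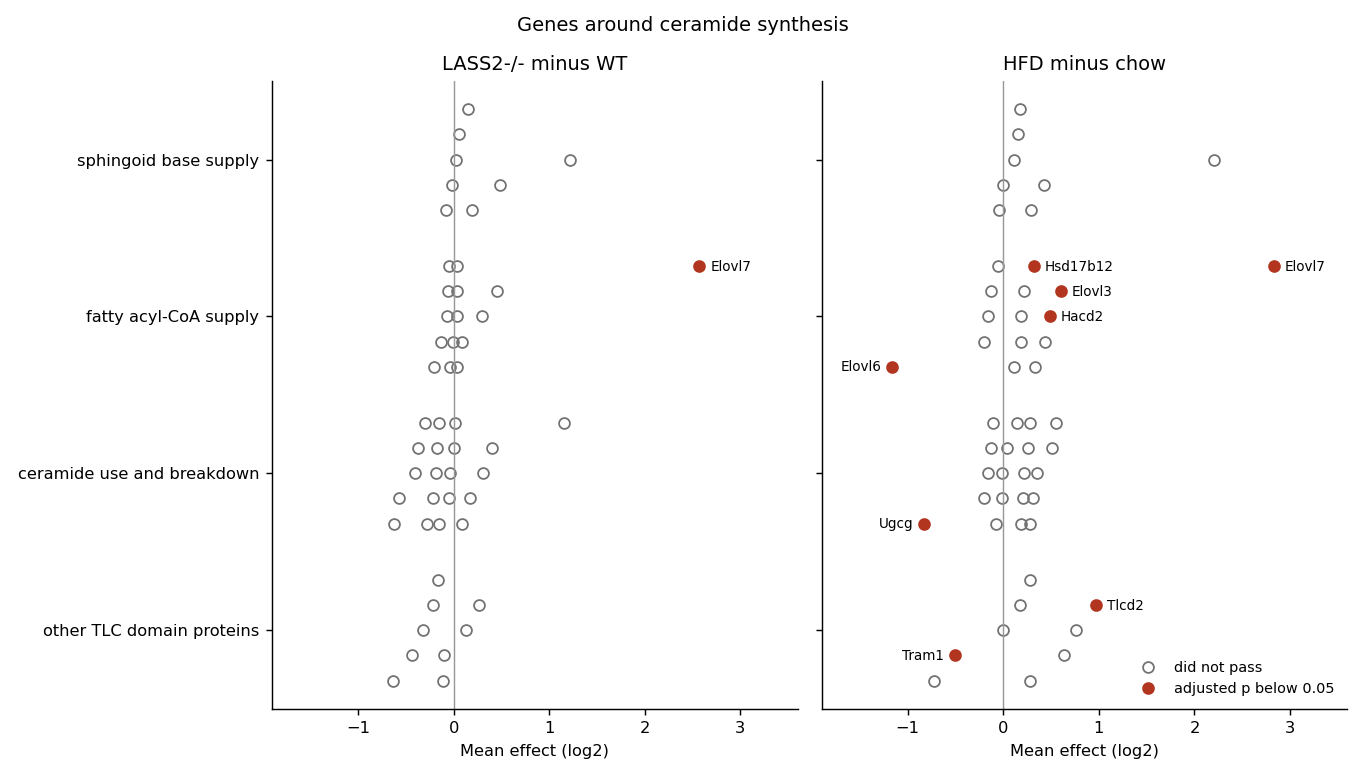
Mean genotype effect (left) and mean diet effect (right) in log2 (horizontal axes) of each kept gene in 4 lists around ceramide synthesis (rows), with vertical offsets only to separate the points. Filled points passed limma at an adjusted p under 0.05: Elovl7 for genotype, and 8 genes for diet.

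Some macrophage markers rose with the genotype label. Of 12 Kupffer cell and macrophage markers, 2 rose and 0 fell for genotype in limma, with 10 at an unadjusted p under 0.05 and a median of 0.40, where 0.456% of the 12493 genes passed and 1288 had such an unadjusted p. Marco, a scavenger receptor, rose by 2.48 ± 0.24 (limma, adjusted p = 0.00145, and no longer passing with robust moderation), and Mpeg1, a pore-forming protein of macrophages, by 0.83 ± 0.11 (limma, adjusted p = 0.0072, and no longer passing with equal medians). The Kupffer cell markers Clec4f and Timd4 did not pass, with effects of 0.18 ± 0.12 (limma, adjusted p = 0.771) and -0.05 ± 0.27 (limma, adjusted p = 0.983). They were the only markers of this list without an unadjusted p under 0.05. Vsig4, also a Kupffer cell marker, had an effect of 0.23 ± 0.10 (limma, adjusted p = 0.533). Hepatocyte markers had a genotype median of 0.00, with 0 of 8 passing and 1 at an unadjusted p under 0.05. On HFD, LASS2-/- minus WT was 3.08 for Marco, 1.04 for Mpeg1 and 0.46 for Cers5 1451209_at. On chow it was 1.87 for Marco, 0.61 for Mpeg1 and 0.07 for Cers5 1451209_at. The part of macrophage content in the Cers5 and Elovl7 values was not tested. Cers3, a synthase of skin and testis, was below the array median on all 4 arrays, and the Cers1 probe set, shared with Gdf1, was left out by the rule.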

How the data were processed

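The authors deposited 1 log2 signal per probe set and array, made with MAS5, the Affymetrix signal algorithm, per the submitters' processing notes. The sources used here name neither its version nor its scaling target. On the linear scale the arrays had nearly equal trimmed means (496.0 to 496.2, with 2% cut from each tail), so no scaling was added. Symbols were taken through gene numbers from RefSeq (GRCm38.p6): 34945 probe sets had 1 symbol, 932 several and 9160 none.

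Probe sets under the array median on all 4 arrays were left out. A list gene was represented by its kept probe set of highest mean signal, and ratios with a signal under the array median are bounds against that median. Mean effects came from limma 3.58.1 (R 4.3.3), with genotype and diet as terms, on unfloored log2 values of all 26035 kept probe sets, with a trend in signal and Benjamini-Hochberg adjustment. This fit has 1 residual degree of freedom per probe set, beside 11.6 from the prior, so its p-values do not measure a spread between animals.

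Named were all member probe sets, the pathway list genes passing limma (in a list with none, the 2 of largest effect) and the 3 genes nearest in shape to each member. Members and lists were chosen with earlier results of these data known. Of the lists not described above, endothelial, stellate, cholangiocyte and lymphocyte markers had 0 of 7, 0 of 8, 0 of 3 and 0 of 4 kept genes passing for genotype. For diet, 1 endothelial, 2 stellate, 1 lymphocyte and 1 macrophage marker rose, 1 stellate and 1 hepatocyte marker fell, and no cholangiocyte marker passed. The lymphocyte marker was Ptprc, whose diet call held in 4 of 9 alternative settings. Its diet effect was 0.51, and -0.73 with the mean of its probe sets, so no rise of lymphocytes is read from it. The macrophage marker was Lyz2, whose diet call held in 3 of 10. For arrays, their number limits the precision.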

Additional observations from a re-analysis of the deposited data

How the results depend on the processing

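No paired analysis was possible because each group holds 1 array and the labels carry no replicate numbers. Over 10 alternative settings of the limma fit, none of the mean effects of the 5 kept member probe sets passed, and 92 of 94 alternative values kept their direction. The exceptions were the genotype effect of Cers4 1417780_at, -0.03 with values raised to the median before the fit, and that of Cers5, -0.13 with the mean of its probe sets, 1 of the 2 being below the median on all 4 arrays. With the mean of its probe sets, the diet effect of Cers5 kept its direction but was 1.53, against 0.10 for 1451209_at alone. The lowest unadjusted p for genotype among these settings was 0.016, for Cers4 1417781_at. After scaling to equal medians, LASS2-/- minus WT of Cers2 on chow was -0.25 against -0.15, while the median over kept probe sets was -0.09 against 0.01. Leaving out probe sets ending in _x_at, _s_at or _a_at removed Cers2, so it has no value there.

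The counts over all probe sets depended more on the settings; the cause was not tested. For genotype limma called 63 higher and 28 lower, against 21 and 13 with quantile normalization, 20 and 17 with equal medians, 191 and 100 with a 25th-percentile floor and filter, 38 and 17 with floored values, 144 and 84 without those probe set types, and 22 and 17 with the mean of all probe sets. It called 32 higher with robust moderation and 44 lower with 1 probe set a gene. Without a trend in the moderation 0 were called for genotype or diet in either direction, where 1481 and 3021 had an unadjusted p under 0.05, so every list gene named as passing, such as Elovl6 and Tlcd2, did not pass there. For diet it called 1012 higher and 942 lower, against 370 and 349 with the mean of all probe sets and 602 lower with equal medians. Counts of probe sets at least 2-fold apart, such as 340 higher and 158 lower for genotype on HFD, were 2152 and 2329 with a 25th-percentile floor, and for genotype on chow 311 and 144 became 204 and 240 with equal medians.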
